A study of Mus musculus with 6 samples.

Results

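Cytosolic ribosomal protein genes were compared between tibialis anterior muscles of aged and young mice. The members were taken by name. They were the genes with a symbol that starts with Rpl or Rps and a digit, with Rpsa and Rplp0 to Rplp2 added and with the S6 kinases (Rps6k) and the named pseudogenes (-ps) left out. This gave 50 of the 11239 genes listed in the deposited tables. Of these, 27 encode proteins of the large subunit and 16 proteins of the small subunit, and these 43 are called core genes here. The other 7 match the name but lie outside the standard set of a cytosolic ribosome. They are the paralogs Rpl3l, Rpl22l1, Rpl36al, Rpl39l and Rps27l, the retrogene Rps27rt and Rps3a2, which the GENCODE annotation holds as a processed pseudogene. A further 19 large subunit and 15 small subunit genes of the standard lists of 46 and 31 were not analysed here.

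The aged group was 3 samples of tibialis anterior from C57BL/6 mice of 18 months, and the young group 3 samples of the same muscle and strain from mice of 3 months. The tibialis anterior lies on the front of the shin and consists mostly of fast fibres. TRIzol was used to extract total RNA for Illumina libraries, and the values are FPKM (fragments per kilobase of transcript, relative to the library's total). Nothing in the labels says whether each sample came from its own animal, so the p-values measure the spread between these samples, which may be technical. The libraries held 89919530 to 101057913 fragments in the aged group and 71984420 to 102135094 in the young group. The 43 core genes drew between 7979 and 284730 fragments each over the 6 libraries, so counting error is small beside the spread between libraries for them. The submitters name the deposited tables as tables of differential genes, but do not say how they were chosen. If the age contrast entered that choice, it entered the choice of the 50 members too, and the counts describe these listed genes only.

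Cytosolic ribosomes consist of a small subunit, which binds the mRNA and reads its codons, and a large subunit, which joins the amino acids. Each ribosomal protein is needed about once per ribosome, and in muscle the number of ribosomes limits how much protein a fibre can make. Mammalian ribosomal protein mRNAs typically start with a cytosine followed by a run of pyrimidines (C or T in the DNA), the 5′ terminal oligopyrimidine or TOP motif, through which mTORC1 controls their translation.

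The start sites of the members are shown first, because the run of pyrimidines is a feature that the name rule did not use. RefSeq start sites on GRCm38.p6 were matched for 41 members, 35 of them core genes. The 30 bases printed run 5′ to 3′ from 15 bases before the start site, and capitals mark the longest unbroken run of C and T in that window (the first on a tie). Rps27 and Rpl14 are shown as the small subunit gene with the largest rise and the large subunit gene with the smallest p, Rpl38 as the large subunit gene with the largest rise, Rpl4 and Rplp2 as other genes that rose, Rpl7a as the longest run, Rpl5 as a core gene that rose and has a short run, and Rps27rt and Rpl3l as genes outside the core.
Rps27 (chr3:90213634-90213663, minus strand): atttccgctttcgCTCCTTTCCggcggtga
Rpl14 (chr9:120571502-120571531, plus strand): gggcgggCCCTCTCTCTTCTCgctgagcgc
Rpl38 (chr11:114668565-114668594, plus strand): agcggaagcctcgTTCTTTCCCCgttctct
Rpl4 (chr9:64173372-64173401, plus strand): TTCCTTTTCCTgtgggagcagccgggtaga
Rplp2 (chr7:141447636-141447665, plus strand): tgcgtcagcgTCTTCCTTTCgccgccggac
Rpl7a (chr2:26910792-26910821, plus strand): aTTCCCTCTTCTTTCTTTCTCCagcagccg
Rpl5 (chr5:107900513-107900542, plus strand): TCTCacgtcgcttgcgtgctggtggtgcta
Rps27rt (chr9:114982725-114982754, minus strand): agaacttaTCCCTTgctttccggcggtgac
Rpl3l (chr17:24727811-24727840, plus strand): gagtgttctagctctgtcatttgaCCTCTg

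A run of at least 8 pyrimidines lay in the window of 16 of the 35 core genes (45.7%), against 3943 of the 32851 start sites in the whole table (12%). The run could lie anywhere in the window, so these are not shares of genes with a TOP start. Those of Rpl4, Rpl13, Rpl31, Rpl34 and Rps15a end before the listed start site. With a run of at least 10 the shares were 31.4% of core genes and 5.34% of all start sites, and with a run of at least 6 they were 65.7% and 29.2%. The muscle paralog Rpl3l had no run longer than 5, and core genes such as Rpl5, with no run longer than 4, had short runs too. Rps27rt encodes the same protein coding sequence as Rps27, with 255 of 255 bases identical, but its own start window carries a shorter run. The letters CCGGAAG, a core motif bound by ETS family factors, were found on either strand of the 300 bases from 250 before to 50 after the start site in 37.1% of core genes, against 8.86% of all start sites. TATAAA, searched in the same window and on both strands, was found in 8.57% of core genes and 13.6% of all start sites. AAGATGGCG, the core of the YY1 motif, was found in 5.71% of core genes and 1.40% of all start sites. A match is a match of letters only. Of the 16 core genes with a run of at least 8 pyrimidines, 12 rose with age and 4 were not called. Of the 19 without one, 13 rose and 6 were not called. Over all tested genes 27.3% were called higher, by the test described below.

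Transcripts of most listed members were more abundant in the aged muscles, and 31 of the 43 core genes were called higher. Of the 50 members, 49 passed the minimum of 1 FPKM on average over the 6 libraries, and 35 of these 49 (71.4%) rose, by limma on log2(FPKM + 1) with a Benjamini-Hochberg adjusted p under 0.05 over all 7690 tested genes. Over all tested genes 51.8% were called, 27.3% higher and 24.5% lower in the aged group, and among those with a mean of at least 50 FPKM 30.3% were called higher. No member was called lower by limma on these values or by voom on the recovered fragment counts, and 1 member, Rpl3l, was lower at an unadjusted p under 0.05. The other 14 were not called. The median log2 change of the 49 members was 0.33, against 0.02 over all tested genes, and 45 of the 49 had a positive value. Rises were small. The means of the 35 called members differed by 1.16- to 1.62-fold with a median of 1.27-fold, and only Rps27 and the pseudogene Rps3a2 exceeded 1.5-fold. Every aged library lay above every young one for 36 of the 49, against 33.8% of all tested genes, and every aged library lay below every young one for 1, against 29.0%.

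P-values were also adjusted over all 55536 annotated genes, with those that were not listed taken as not called. Then 6 of the 49 members stayed called higher (12.2%), against 12.8% of the tested genes called higher. Leaving out one library gave 17 called members without young 2, 20 without young 3, 23 without aged 3, 29 without aged 1, 34 without young 1 and 37 without aged 2. The share of all tested genes called higher was 20% without young 2, 21.7% without young 3 and 23.0% without aged 3. It was 23.8% without aged 1, 22.0% without young 1 and 27.2% without aged 2.

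**Figure D1:**
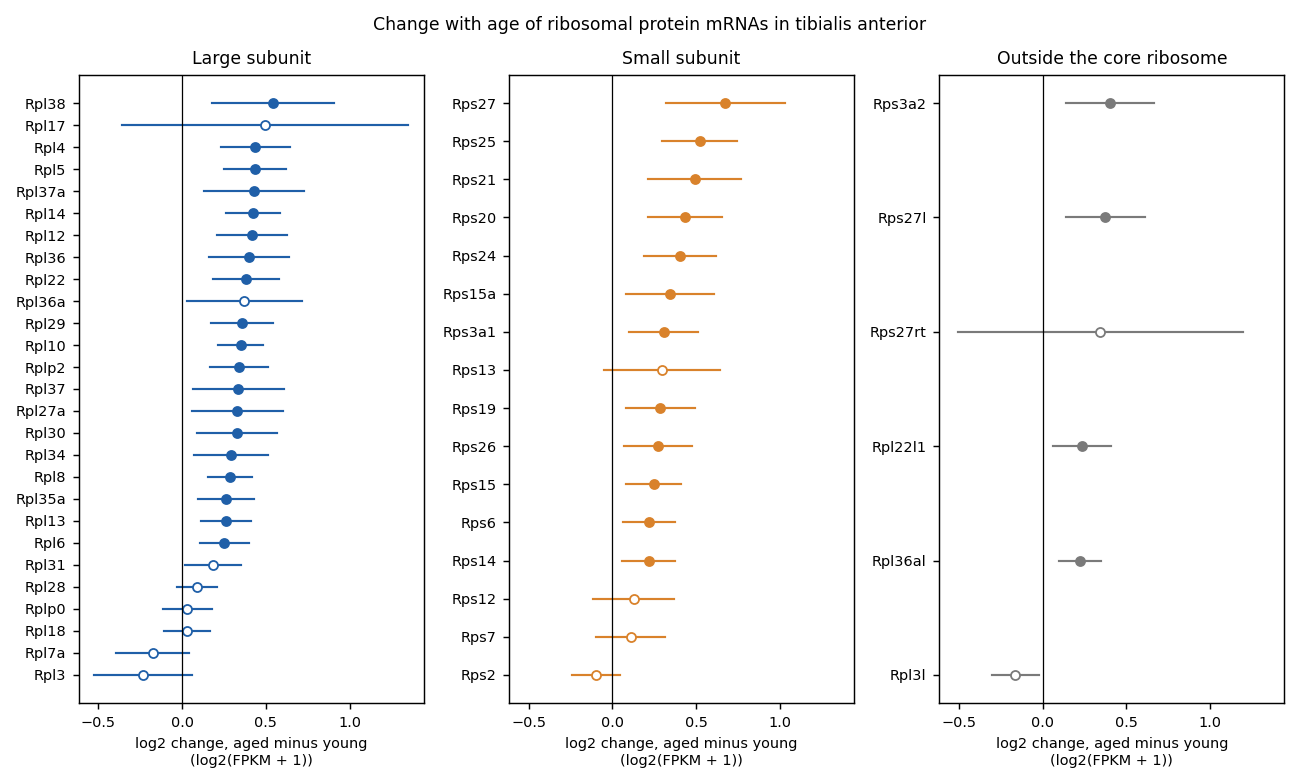
The log2 change (aged minus young, on log2(FPKM + 1)) with its 95% interval is drawn for each of the 49 tested members, in separate panels for the large subunit, the small subunit and the genes outside the core, and filled points are called higher. Most points lie right of 0 in each panel, from -0.23 for Rpl3 to 0.67 for Rps27, and the intervals of Rpl17 and Rps27rt are the widest.

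In the large subunit 19 of 27 genes rose and 8 were not called, with a median log2 change of 0.34 and a range from -0.23 to 0.54. Over all tested genes 27.3% were called higher. The subunit's count was 11 without young 2 and 12 without young 3, against 20% and 21.7% of all tested genes called higher. Rpl4, which lines the tunnel through which the growing peptide leaves, had 411, 384 and 484 FPKM in the aged libraries, against 328, 300 and 312 FPKM in the young libraries. The lowest aged library was above the highest young one, and the log2 change was 0.44 ± 0.09 (SE, limma adjusted p = 0.00563). Rpl5, which carries the 5S ribosomal RNA into the large subunit together with Rpl11, had 160, 154 and 183 FPKM in the aged libraries and 130, 116 and 121 FPKM in the young. Its groups did not overlap either, with a log2 change of 0.43 ± 0.08 (limma adjusted p = 0.0038). Rpl11 was not analysed here.

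Rpl14 had the smallest adjusted p of the members. It had 183, 169 and 199 FPKM in the aged libraries against 140, 133 and 136 FPKM in the young, a log2 change of 0.42 ± 0.07 (limma adjusted p = 0.00239). The young libraries lay close together, and every aged one was above them. Rpl38, which in mice is needed for the translation of a subset of Hox mRNAs, had the largest rise of the large subunit but also a wide spread, with 147, 126 and 195 FPKM in the aged libraries against 120, 94.2 and 102 FPKM in the young. Its log2 change of 0.54 ± 0.16 (limma adjusted p = 0.022) was not called without young 2 (0.078) or without young 3 (0.0584). Rpl37a, a zinc-binding protein, had 251, 222 and 307 FPKM in the aged libraries and 218, 171 and 187 FPKM in the young, with a log2 change of 0.43 (limma adjusted p = 0.0248). This call failed when aged 3 (0.0595), young 2 (0.0868) or young 3 (0.066) was left out. Rpl36, among the highest in FPKM of the listed large subunit genes, had 377, 342 and 445 FPKM in the aged libraries and 317, 270 and 291 FPKM in the young. It rose by 0.40 on the log2 scale (limma adjusted p = 0.0143), with an adjusted p of 0.054 without young 2.

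The stalk is the flexible arm of the large subunit that recruits the translation factors, and 3 of its 4 proteins were listed. Rpl12, at its base, had 106, 93.9 and 118 FPKM in the aged libraries against 83.9, 75.2 and 77.5 FPKM in the young (log2 change 0.42, limma adjusted p = 0.00706). Rplp2, one of the acidic proteins of the arm, had 248, 239 and 284 FPKM in the aged libraries against 210, 194 and 204 FPKM in the young (0.34, limma adjusted p = 0.008). Both rose with no overlap between the groups. Rplp0, the anchor of the arm and a frequent reference gene for quantitative PCR, had 533, 544 and 580 FPKM in the aged libraries and 571, 510 and 543 FPKM in the young. Its groups overlapped, and its log2 change was 0.03 with a 95% interval from -0.12 to 0.18 (limma adjusted p = 0.712). The difference between Rplp0 and the other stalk proteins was not tested. Of 8 proteins at the peptide exit tunnel 3 were listed. Rpl4 rose, and Rpl17 and Rpl31 were not called. Rpl31 had a log2 change of 0.18 (limma adjusted p = 0.0645) with no overlap between the groups, and it passed in 4 of 16 alternatives, namely with the replicate number as a block, after rescaling without the 20 most abundant genes, after rescaling without the members, and without aged 2 (adjusted p from 0.0173 over the alternatives).

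Several other large subunit genes were not called. Rpl18 had 221, 226 and 230 FPKM in the aged libraries and 236, 212 and 216 FPKM in the young, a log2 change of 0.03 with an interval from -0.11 to 0.16. Rpl28 had 306, 307 and 321 FPKM in the aged libraries and 301, 291 and 288 FPKM in the young. Its groups did not overlap, but the log2 change was 0.09 and was not called (limma adjusted p = 0.187), except after rescaling without the 20 most abundant genes (0.0309). Rpl3, a protein close to the peptidyl transferase centre, had 37.5, 30.4 and 38.8 FPKM in the aged libraries and 49.4, 37.2 and 39.7 FPKM in the young. Its log2 change of -0.23 ± 0.13 was not called (limma adjusted p = 0.151) but passed with the replicate number as a block (0.0488). Rpl17 had 62.0, 19.3 and 25.8 FPKM in the aged libraries against 27.1, 19.5 and 20.3 FPKM in the young. Aged 1 alone stood apart, the groups overlapped, and the log2 change of 0.49 ± 0.37 (limma adjusted p = 0.29) was 0.02 without that library.

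In the small subunit 12 of 16 genes rose and 4 were not called, with a median log2 change of 0.29 and a range from -0.10 to 0.67. Over all tested genes 27.3% were called higher. The subunit's count was 5 without young 2, 5 without young 3 and 7 without aged 3. All tested genes had 20%, 21.7% and 23.0% called higher in these fits. Rps27, a zinc-binding protein of the small subunit, had the largest rise of all members. It had 274, 232 and 363 FPKM in the aged libraries against 176, 163 and 198 FPKM in the young, with a 1.62-fold higher mean and a log2 change of 0.67 ± 0.15 (limma adjusted p = 0.00879). Each aged library was above the highest young one, and aged 3 was the highest of all. The listed Rps27rt has the same coding sequence (255 of 255 bases), so fragments of Rps27 and Rps27rt may be confused. Rps27rt had 90.6, 73.5 and 78.1 FPKM in the aged libraries and 120, 59.0 and 35.4 FPKM in the young. Rps25, known for its role in initiation at some viral internal ribosome entry sites, had 259, 237 and 295 FPKM in the aged libraries against 198, 165 and 187 FPKM in the young. Its log2 change was 0.52 ± 0.10 (limma adjusted p = 0.00398), and it was the 1 small subunit gene still called when p-values were adjusted over all annotated genes.

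Rps21 had 239, 208 and 293 FPKM in the aged libraries and 186, 175 and 161 FPKM in the young, a log2 change of 0.49 ± 0.12 (limma adjusted p = 0.0114). Rps24, which is mutated in some human families with Diamond-Blackfan anaemia, had 265, 267 and 321 FPKM in the aged libraries and 229, 195 and 219 FPKM in the young (0.40, limma adjusted p = 0.00922). Rps20, a protein of the head of the small subunit, had 72.3, 70.4 and 88.6 FPKM in the aged libraries and 60.3, 53.5 and 55.8 FPKM in the young (0.43, limma adjusted p = 0.00753). All 3 rose with no overlap between the groups. Rps15a had the lowest FPKM of the 16 listed small subunit genes. By fragments over the 6 libraries it was not the lowest (45593, against 20845 for Rps12 and 42434 for Rps13). Rps15a had 47.7, 42.7 and 58.0 FPKM in the aged libraries and 41.5, 35.1 and 38.8 FPKM in the young. Its log2 change of 0.35 (limma adjusted p = 0.0349) was not called without aged 1 (0.0569), aged 3 (0.0746), young 2 (0.116) or young 3 (0.0742), nor without the minimum on FPKM (0.057).

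Rps14, lost in the human 5q- syndrome, and Rps26, which contacts the mRNA where it leaves the small subunit, were among the highest in FPKM of the listed small subunit genes. Rps14 had 425, 441 and 484 FPKM in the aged libraries and 409, 379 and 372 FPKM in the young. Its log2 change was 0.22 (limma adjusted p = 0.0303), and the call was lost with the replicate number as a block (0.0551), without aged 3 (0.0695), without young 2 (0.09) and without young 3 (0.105). Rps26 had 269, 275 and 326 FPKM in the aged libraries and 258, 227 and 232 FPKM in the young. Its log2 change of 0.27 (limma adjusted p = 0.0315) was not called without aged 3 (0.0649), young 2 (0.103) or young 3 (0.092).

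Rps2, a protein of the mRNA entry channel and the most abundant of all core transcripts in both groups, was not called. It had 544, 589 and 587 FPKM in the aged libraries and 629, 577 and 635 FPKM in the young. The groups overlapped, and the log2 change was -0.10 with an interval from -0.24 to 0.05 (limma adjusted p = 0.222). The other listed small subunit genes that were not called were Rps7, Rps12 and Rps13, with log2 changes of 0.11, 0.13 and 0.30. Rps13, of which the aged libraries had 70.4, 57 and 88.5 FPKM and the young libraries 61.6, 51.5 and 59.9 FPKM, passed with the replicate number as a block (limma adjusted p = 0.0328) and without aged 2 (0.0209).

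Summed levels of both subunits were higher in the aged muscles. The 27 large subunit genes summed to 5426, 5145 and 6054 FPKM in the aged libraries and 4863, 4304 and 4550 FPKM in the young, so the mean was 21.2% higher in the aged group (5542 ± 465 against 4572 ± 280, SD, n = 3 each). Summed FPKM of the 16 small subunit genes was 3506, 3403 and 4069 in the aged libraries and 3211, 2876 and 3048 in the young, 20.2% higher in the aged group (3659 ± 358 against 3045 ± 167, SD, n = 3 each). Every aged sum was above every young sum for both subunits. The ratio of large to small subunit sums was 1.548, 1.512 and 1.488 in the aged libraries and 1.515, 1.496 and 1.493 in the young, means of 1.516 ± 0.0302 and 1.501 ± 0.0118 (SD, n = 3 each). The ratios overlapped between the groups. These sums cover only the listed genes, and no test was run on them. Together the core genes took 0.670%, 0.642% and 0.756% of the fragments of the aged libraries and 0.610%, 0.542% and 0.574% of those of the young libraries.

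**Figure D2:**
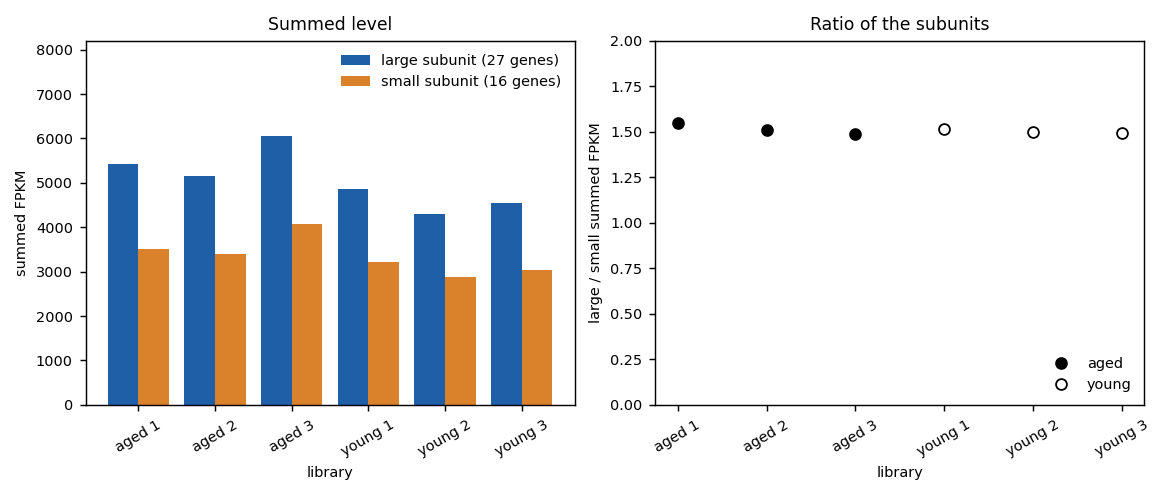
Bars give the summed FPKM of the 27 large and 16 small subunit genes in each library, and points give the ratio of the large to the small sum, with aged libraries left of young ones. All aged bars are higher than the young bars of the same subunit, while the ratio stays between 1.49 and 1.55.

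The core genes shared their order of libraries inside each age group. Aged 3 had the highest value of the aged libraries for 41 of the 43 core genes, against 36.9% of all tested genes, and young 1 the highest of the young libraries for 41 of 43, against 42.4%. Young 2 was the lowest of the young libraries for 38 of 43, against 39.2%, and aged 2 the lowest of the aged ones for 34 of 43, against 43.8%. After subtraction of the group means on the log2(FPKM + 1) scale, 38 of the 43 core genes correlated above 0.8 with the mean of the other core genes over the 6 libraries (median r = 0.941), against 904 of 7641 other tested genes (11.8%, median r = 0.207). These are descriptions over 6 libraries, and all genes of a library share its depth and preparation. Young 2 had the fewest fragments (71984420), and the part of depth in this order was not tested. Rpl17 (r = 0.154), Rps2 (0.356), Rpl18 (0.671), Rps14 (0.764) and Rpl7a (0.765) were the 5 below 0.8. Rpl7a lies outside the rule for named genes and was chosen after its values were seen. The median deviation of the core genes from their group mean was 0.15 in aged 3 and -0.12 in aged 2, and 0.09 in young 1 and -0.09 in young 2, so the spread inside a group reached close to the median rise of 0.33.

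**Figure D3:**
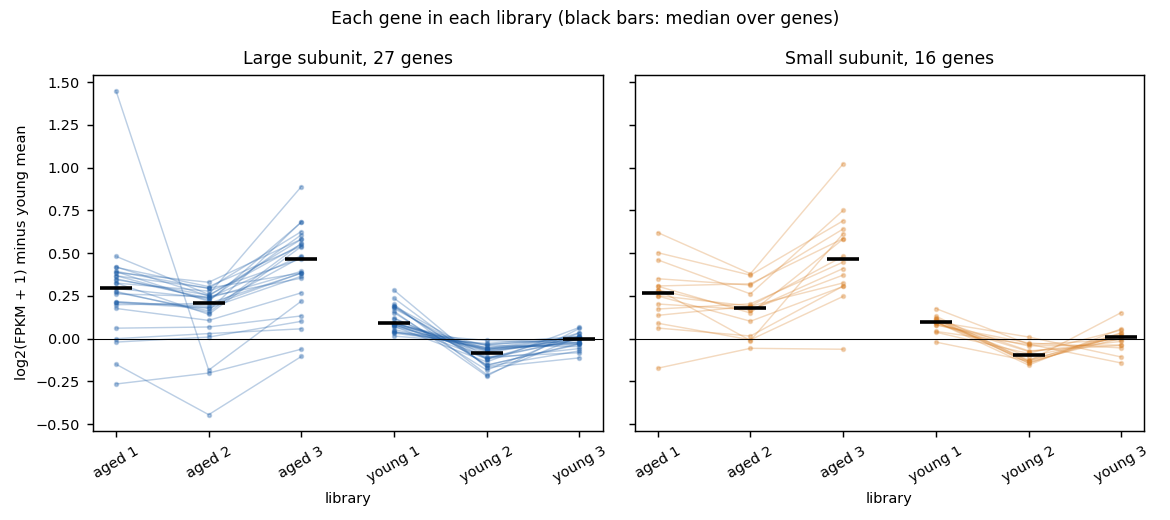
Each line joins the values of 1 core gene, as log2(FPKM + 1) minus its mean in the young libraries, in the 3 aged and the 3 young libraries. Most lines follow each other across the libraries, Rpl17 and Rps2 least so, with aged 3 highest of the aged libraries in 41 of 43 genes and young 2 lowest of the young libraries in 38.

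FPKM levels of the core genes spanned a wide range although the proteins are needed in about equal numbers. FPKM divides by a length, and the length recovered with the fragment counts equals an annotated transcript for 19.9% of detected genes. It is 204 bp for Rpl36a, with a coding sequence of 321 bases, and 1860 bp for Rps15a, with 474. Comparisons of level between genes therefore depend on these lengths. In the aged group the means ran from 35.6 FPKM for Rpl3 to 573 FPKM for Rps2, a 16.1-fold range with a median of 199.7 FPKM. In the young group they ran from 22.3 FPKM for Rpl17 to 614 FPKM for Rps2, a 27.5-fold range with a median of 171 FPKM. Many ribosomal protein genes have processed pseudogenes that are near copies of the mRNA, and fragments from the gene and a copy can be confused. Of the 50 members 46 had at least 1 annotated sequence with at least 95% identity over at least 80% of their coding sequence. Rpl7a had 33 such copies, Rpl29 28, Rps2 26, Rps12 23 and Rpl17 22. How the authors treated fragments that fit several places is not stated in these sources, so levels of genes with many copies are uncertain.

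By number of copies, 11 of 14 core genes with at most 3 copies rose (median log2 change 0.34), as did 15 of 19 with 4 to 9 copies (0.35) and 5 of 10 with 10 or more (0.24). Across the 43 core genes the log2 change and the number of copies had a Pearson r of -0.377 and a Spearman rho of -0.268, as a description across genes that are not independent. Rpl7a, with the most copies, had 52.2, 54.6 and 60.3 FPKM in the aged libraries and 72.0, 58.4 and 59.4 FPKM in the young, and its log2 change of -0.18 was not called (limma adjusted p = 0.148). Of 24 listed genes named as ribosomal protein pseudogenes, 19 were tested, with a median log2 change of 0.28. By limma 8 were called higher (42.1%) and 0 lower, against 27.3% and 24.5% of all tested genes. At an unadjusted p under 0.05, 11 were higher and 0 lower. The span of 17 of the 50 members overlaps an annotated gene other than a small nucleolar RNA gene, and since the strandedness of the libraries is not given, fragments of the 2 genes cannot be told apart there. These 17 include Rps2, Rps14, Rps21, Rps25, Rpl3, Rpl5, Rpl12, Rpl18 and Rpl28.

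**Figure D4:**
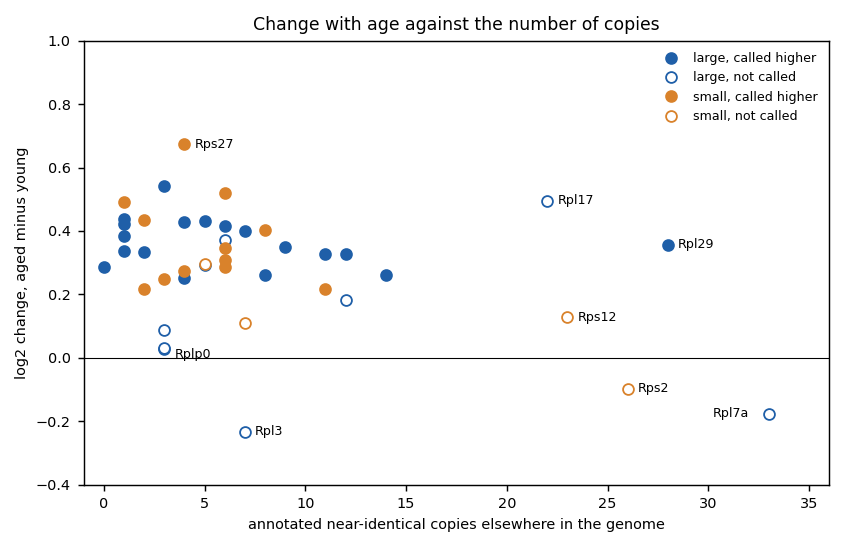
The log2 change (aged minus young) of each core gene is plotted against its number of near-identical annotated copies, for the large and the small subunit. Genes with up to 9 copies lie mostly above 0.2, but Rpl3 with 7 lies lowest of all core genes. Rpl7a with 33 copies and Rps2 with 26 lie below 0, while Rpl29 with 28, Rps12 with 23 and Rpl17 with 22 lie above 0.

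Other abundant genes with a short recovered length were counted in the same way. Among 344 tested genes with a recovered length under 1 kb and a mean of at least 50 FPKM, members included, 28.5% were called higher. Without the members 306 genes remained, of which 22.9% were called higher and 32.4% lower, with a median log2 change of -0.03. Small nucleolar RNA genes, on either strand, overlap the span of 18 of the 43 core genes. Of these 12 rose, as did 19 of the 25 without one, against 27.3% of all tested genes.

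Of the paralogs outside the core, Rpl3l was the one lower in each aged library. Rpl3l (chromosome 17, 24727820 to 24736143 on GRCm38, as the deposited tables list it) encodes the form of Rpl3 that striated muscle uses in place of Rpl3, with 74.3% of coding bases identical. It had 464, 522 and 511 FPKM in the aged libraries and 563, 552 and 561 FPKM in the young. Every aged library was below every young one, by 10.7% in the mean, and the log2 change of -0.16 ± 0.06 missed the threshold (limma adjusted p = 0.0512), passing it without aged 2 (0.0362). The recovered lengths of Rpl3l and Rpl3 were 1002 bp and 1201 bp. The FPKM ratio of Rpl3l to Rpl3 was 12.4, 17.2 and 13.2 in the aged libraries and 11.4, 14.8 and 14.1 in the young. The ratios overlapped, with a log2 difference of 0.07 (exact two-sided permutation test p = 0.7, n = 3 each, where the smallest possible p is 0.1).

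Rps27l, a paralog of Rps27 induced by p53, had 101, 101 and 126 FPKM in the aged libraries and 89.4, 75.7 and 86.1 FPKM in the young. It rose by 0.37 on the log2 scale (limma adjusted p = 0.0174), with an adjusted p of 0.0634 without young 2. Since Rps27 had a higher log2 change, the ratio of Rps27l to Rps27 was 0.369, 0.434 and 0.347 in the aged libraries and 0.509, 0.466 and 0.435 in the young. Every aged ratio was below every young one, with a log2 difference of -0.30 (exact two-sided permutation test p = 0.1, the smallest that 3 against 3 allows, and 0.4 after adjustment over 4 pairs). The level of Rps27 in this ratio is uncertain, because Rps27rt has the same coding sequence.

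Rpl22l1, a paralog that can take the place of Rpl22, had 18.5, 20.4 and 22.2 FPKM in the aged libraries and 17.4, 16.5 and 17.4 FPKM in the young. Its log2 change was 0.24 (limma adjusted p = 0.0301). The call held without aged 1 only of the 6 leave-one-out fits, whose adjusted p ran from 0.0141 to 0.0985, and voom gave 0.0527. Rpl36al, which differs little from Rpl36a, had 113, 111 and 109 FPKM in the aged libraries and 97.8, 90.4 and 96.5 FPKM in the young (log2 change 0.22, limma adjusted p = 0.0117). The log2 ratio of Rpl22l1 to Rpl22 differed by -0.14 (exact two-sided permutation p = 0.2) and that of Rpl36al to Rpl36a by -0.15 (exact two-sided permutation p = 0.7), and neither pair reached the smallest p of 0.1.

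Rps27rt and Rps3a2 are near copies of core genes. Rps27rt had 90.6, 73.5 and 78.1 FPKM in the aged libraries and 120, 59.0 and 35.4 FPKM in the young. The young libraries spread widely, and the log2 change of 0.34 ± 0.37 (limma adjusted p = 0.454) was 0.80 without young 1 (0.0201) and -0.06 without young 3 (0.857). Rps3a2, with 788 of 792 aligned coding bases shared with Rps3a1, had 1.85, 1.59 and 2.33 FPKM in the aged libraries and 1.04, 1.19 and 1.37 FPKM in the young, from 428 fragments in the aged group and 261 in the young group. Its log2 change was 0.40 (limma adjusted p = 0.0189), and the adjusted p was 0.0524 without aged 3, 0.0631 without young 1 and 0.0543 without young 2. Rpl39l, known from testis, was under the minimum of 1 FPKM, with 0.175, 0.0650 and 0.0656 FPKM in the aged libraries and 0.193, 0.143 and 0.245 FPKM in the young, from 20 and 37 fragments, and was not tested.

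**Figure D5:**
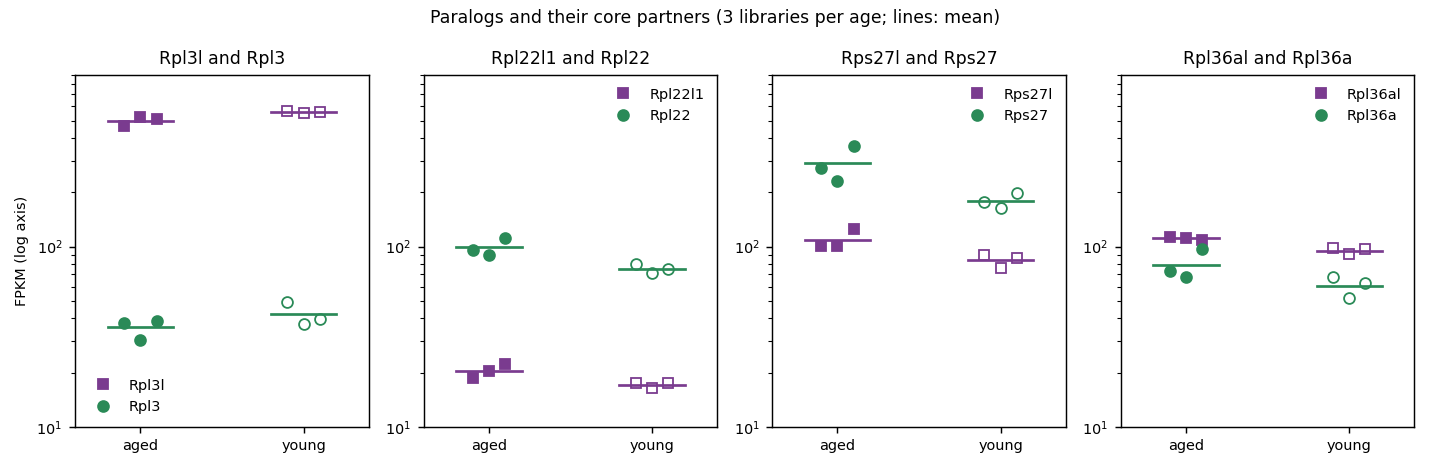
FPKM of each of 4 paralogs and its core partner is plotted per library on a log axis, with the 3 aged libraries left of the 3 young ones. Rpl3l lies above Rpl3 in each library by 11.4- to 17.2-fold, whereas Rpl22l1 lies below Rpl22 in each.

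Genes that make or regulate ribosomes were described from lists of their known members. Of 35 ribosome assembly factors 17 were listed and tested, 8 rose and 0 fell by limma (0 also at an unadjusted p under 0.05), with a median log2 change of 0.18. Over all tested genes 27.3% were called higher and 24.5% lower, with a median of 0.02. Gnl3, a nucleolar GTPase, averaged 11.5 ± 1.02 FPKM in the aged group and 7.69 ± 0.0377 FPKM in the young group (SD, n = 3 each), a log2 change of 0.52 ± 0.07 (limma adjusted p = 0.00116). Tsr1, which acts in the maturation of the small subunit, rose by 0.29 (adjusted p = 0.0157, but 0.0578 without young 1). Sbds, which releases the anti-association factor Eif6 from the large subunit, rose by 0.28 (0.0188, but 0.0506 without aged 1 and 0.0683 without young 3).

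Of 15 genes for RNA polymerase I and its initiation factors, which transcribe the ribosomal RNA, 7 were tested, 4 rose and 0 fell by limma (0 also at an unadjusted p under 0.05), against 27.3% and 24.5% of all tested genes, with a median log2 change of 0.21. Taf1d, a subunit of the selectivity factor SL1, averaged 7.41 ± 0.182 FPKM in the aged group and 5.78 ± 0.187 FPKM in the young group (SD, n = 3 each; log2 change 0.31, limma adjusted p = 0.00506). The calls of Twistnb (0.29, limma adjusted p = 0.025) and Taf1a (0.23, 0.0448) were lost in 4 and 5 of the 6 leave-one-out fits, with an adjusted p of up to 0.081 and 0.144.

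Of 17 other transcripts known for a TOP start 10 were tested, 4 rose and 3 fell (40% and 30%, against 27.3% and 24.5% of all tested genes), with a median log2 change of 0.12. Snhg8 rose by 0.43 on the log2 scale (limma adjusted p = 0.00722), and Pabpc1, the poly(A) binding protein, fell by 0.40 (limma adjusted p = 0.0081), with 55.7 ± 6.05 FPKM in the aged group and 73.4 ± 5.12 FPKM in the young group (SD, n = 3 each). Snhg1, a host of small nucleolar RNAs, fell by 0.63 (limma adjusted p = 0.00161). Of 25 genes of mTORC1 and translation control 17 were tested, 4 rose (23.5%) and 5 fell (29.4%), with a median log2 change of -0.06. These shares are near the 27.3% and 24.5% of all tested genes, so the counts are no result about the list. Ddit4, an inhibitor of mTORC1 induced by stress and glucocorticoids, averaged 12.2 ± 2.17 FPKM in the aged group and 124 ± 10.7 FPKM in the young group (SD, n = 3 each), a log2 change of -3.25 ± 0.13 (limma adjusted p = 1.12e-05). Sesn1, another inhibitor, fell by 1.32 (limma adjusted p = 0.000116), with 14.3 ± 1.39 FPKM in the aged group and 37.3 ± 4.19 FPKM in the young group. Ddit4l, a relative of Ddit4 with the same described activity, rose, with 172 ± 16.1 FPKM in the aged group and 88.4 ± 10.6 FPKM in the young group and a log2 change of 0.96 ± 0.10 (limma adjusted p = 0.000361).

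Markers of cell types were counted too, and their part in the ribosomal protein result was not tested. Over all tested genes 27.3% were called higher and 24.5% lower. The lists are short, and counts near these shares, such as those of the muscle fibre list, are no result about a list. Muscle fibre markers summed to 59689 to 64070 FPKM in the aged libraries and 61807 to 67709 FPKM in the young, with 2 of 6 called higher and 2 lower. Fibroblast and progenitor markers summed to 209 to 272 FPKM in the aged libraries against 898 to 1253 FPKM in the young, with 6 of 7 lower. Of 5 endothelial markers 4 were lower and 1 higher (sums of 154 to 180 FPKM in the aged and 198 to 225 FPKM in the young libraries), and of 5 macrophage markers 3 were lower (23.7 to 49.5 FPKM in the aged and 47.6 to 105 FPKM in the young libraries). Lymphocyte markers summed to 27.3 to 54.0 FPKM in the aged libraries and 11.1 to 13.7 FPKM in the young, with 2 of 3 tested higher. Those called, Ighm and Igkc, made up most of the aged sums. Ptprc was not called, with means of 1.05 FPKM in the aged and 2.05 FPKM in the young group. The erythroid sums were 228 to 236 FPKM in the aged and 124 to 182 FPKM in the young libraries, with 2 of 4 higher. Adipocyte markers summed to 69.9 to 74.7 FPKM in the aged and 54.5 to 62.3 FPKM in the young libraries, with 3 of 4 tested higher. Schwann cell markers had 2 of 5 lower (63.5 to 66.2 FPKM in the aged and 87.1 to 99.6 FPKM in the young libraries), and muscle stem cell markers 1 of 2 tested lower (5.40 to 6.73 FPKM in the aged and 10.8 to 12.6 FPKM in the young libraries). The 1 tested cell cycle gene, Mcm2, was higher, with means of 9.11 FPKM in the aged and 5.74 FPKM in the young group. It made up most of the list's sums of 8.61 to 9.87 FPKM in the aged and 5.53 to 6.35 FPKM in the young libraries. Mki67 and Cdk1 were under the minimum, with lower means in the aged group (0.117 and 0.0183 FPKM) than in the young (0.135 and 0.178 FPKM). In whole muscle, a change in the share of a cell type and a change in RNA per cell cannot be told apart.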

How the data were processed

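RNA-seq was analysed from 3 aged and 3 young tibialis anterior samples, grouped by the labels' age. The authors deposited FPKM values in a table per library. The submitters' processing notes name bcl2fastq 2.19, TopHat, DESeq2 and the build mm9 without their roles. The positions listed follow GRCm38 instead, with 11210 of 11239 gene identifiers in GENCODE M21 and 89.0% of those at the same start. No sample column was left unused. Whole fragment counts were recovered from the FPKM values as deposited, with 100% of values within 0.001 of a whole number. Replicates of a group differed beyond sampling noise, with chi-square values of 37.5 to 97.6 per degree of freedom. Floors and intervals from these counts would cover counting error only, and 3 fragments at 1 kb correspond to 0.0294 to 0.0417 FPKM.

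Genes that averaged 1 FPKM or more across libraries were tested with limma 3.58.1 (R 4.3.3, empirical Bayes with trend, two-sided) on log2(FPKM + 1), a scale that understates changes of low genes. Adjusted p is Benjamini-Hochberg over the 7690 genes tested, with a threshold of 0.05, and the procedure was tested on simulated data. Paralog ratios were compared by exact permutation over the 6 libraries. Copies were searched with blastn 2.17.0. Genes named in the text were, per subunit, the 6 largest rises among called genes, the 3 highest and 2 lowest levels and the 3 smallest changes, all stalk and 5S particle proteins and all genes outside the core, and the 3 largest called changes of each other list. Others were named after their values were seen. The members and the lists were chosen with earlier results of these data known.

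Libraries with the same replicate number deviated together from their group means (r = 0.177, 0.182 and 0.136, against -0.192 to 0.0358 for other pairs), so a fit with the replicate number as a block was run. Other alternatives were the pseudocount, the minimum, 3 scalings, a robust variance model, voom, adjustment over all annotated genes, and leaving out each library.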

Additional observations from a re-analysis of the deposited data

How the results depend on the processing

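With a pseudocount of 0.1, a minimum of 5 FPKM, median-of-ratios scaling, a robust variance model or voom, 34 or 35 members were called higher. The number was 31 with no minimum, 38 after rescaling without the 20 most abundant genes and 37 after rescaling without the members. The rescaling without the 20 most abundant genes moved the calls over all genes to 2648 higher and 1580 lower, against 2097 and 1885. With the replicate block 37 members were called higher, 34 of them called without it, and 1 member, Rpl3 of the large subunit, was called lower. Beyond Rpl3, Rps13, Rps14 and Taf1a (adjusted p = 0.0566), the block changed the call of no gene named by rule. Adjustment over all annotated genes left 6 members called higher, 5 of the large and 1 of the small subunit, and 24.5% of tested genes called in either direction, because more genes enter the adjustment. Leaving out one library gave between 17 and 37 members called higher, 0 or 1 called lower, 11 to 21 of the large subunit and 5 to 13 of the small subunit. Of all tested genes, 20% to 27.2% were called higher in these fits. The log2 difference of the Rpl3l to Rpl3 ratio ran from -0.067 (without aged 2) to 0.169 and was also negative without young 1 (-0.04). The log2 change of Rplp0 ran from -0.012 (without young 2) to 0.068 and was also negative without aged 3, that of Rpl18 from -0.000998 (without young 2) to 0.075, and that of Rps27rt from -0.064 (without young 3) to 0.80. The cause was not tested. Of the 35 called members 17 kept their call in all 6 fits without a library. Over the log2 changes of the named genes under each alternative, 609 kept their direction and their side of the threshold, 66 kept the direction but lost the call, 6 gained a call and 4 changed sign. No depth limit applies to the core genes, while Rpl39l with 57 fragments in all could not be tested.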
